A study of Mus musculus with 22 samples.

Results

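The 9 genes described here are those of the transforming growth factor beta (TGF-beta) pathway listed by symbol as Tgfb1, Tgfb2, Tgfb3, Ltbp1, Tgfbr1, Tgfbr2, Smad3, Smad7 and Tgfbi. They were taken from a table of 55573 genes by exact match of the symbol, and all 9 passed the filter on low counts that left 14062 genes for testing. Expression was measured by mRNA-seq of whole liver in 22 mice, 1 library per mouse. Cre mice (wild-type Flcn, Albumin-Cre+/-) were compared with liver-Flcn-/- mice, which carry floxed Flcn alleles with Albumin-Cre. Both genotypes thus express the recombinase, and Flcn is deleted where the albumin promoter drives or once drove it, chiefly in hepatocytes. All mice were on the C57BL/6 background and 3 months old at collection. They were fed either a control chow with 10 kcal% fat or a methionine- and choline-deficient (MCD) diet, which began at 6 weeks of age and lasted 6 weeks. The chow groups were 6 Cre and 5 liver-Flcn-/- mice, the MCD groups 5 Cre and 6 liver-Flcn-/- mice. The libraries held from 13751347 to 21144388 reads on genes. Levels are CPM, reads of a gene relative to the reads of its library after TMM scaling, a scaling that sets the bulk of genes equal between libraries.

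TGF-beta is made as a latent precursor. The 3 ligands, TGF-beta 1, 2 and 3, are secreted bound to their own propeptide, and latent TGF-beta binding proteins such as Ltbp1 tether this complex to the extracellular matrix until it is activated. The free ligand joins the type II receptor Tgfbr2 with the type I receptor Tgfbr1, which phosphorylates Smad3 and its partner Smad2, while Smad7 is induced by the signal and inhibits it. In injured liver the pathway is known for driving hepatic stellate cells to become matrix-producing myofibroblasts. Tgfbi encodes an extracellular matrix protein named for its induction by TGF-beta.

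The stretch before the start site is shown for Tgfb1, Tgfb2 and Ltbp1, which rose with the MCD diet in Cre mice, and for Tgfbr2, which did not, so that their control regions can be read side by side. Each is the 250 bases upstream of the RefSeq start on GRCm38.p6, printed 5′ to 3′ on the strand of the gene. Capitals mark matches on either strand to any of 4 motifs. The first is CACGTG, the core of the CLEAR element, which the transcription factors TFEB and TFE3 bind. The others are the Smad box with the letters CAGAC, the GC box spelled GGGCGG and the TATA box spelled TATAAA. The regions are chr7:25686752-25687001 on the plus strand for Tgfb1, chr1:186705990-186706239 on the minus strand for Tgfb2, chr17:75005279-75005528 on the plus strand for Ltbp1 and chr9:116175364-116175613 on the minus strand for Tgfbr2.
Tgfb1: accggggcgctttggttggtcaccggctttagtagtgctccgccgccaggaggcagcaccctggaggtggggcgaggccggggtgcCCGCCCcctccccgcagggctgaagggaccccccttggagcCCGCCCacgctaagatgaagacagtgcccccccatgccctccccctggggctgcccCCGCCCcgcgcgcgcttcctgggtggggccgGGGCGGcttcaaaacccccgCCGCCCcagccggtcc
Tgfb2: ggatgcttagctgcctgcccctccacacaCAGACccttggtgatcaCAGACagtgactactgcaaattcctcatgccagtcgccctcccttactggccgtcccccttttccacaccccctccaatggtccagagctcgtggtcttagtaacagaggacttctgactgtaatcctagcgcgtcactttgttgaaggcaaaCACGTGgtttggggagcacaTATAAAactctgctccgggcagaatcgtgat
Ltbp1: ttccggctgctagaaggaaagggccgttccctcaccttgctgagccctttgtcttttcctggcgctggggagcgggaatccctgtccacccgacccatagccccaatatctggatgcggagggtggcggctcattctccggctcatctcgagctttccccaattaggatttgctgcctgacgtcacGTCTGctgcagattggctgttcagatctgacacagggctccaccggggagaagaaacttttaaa
Tgfbr2: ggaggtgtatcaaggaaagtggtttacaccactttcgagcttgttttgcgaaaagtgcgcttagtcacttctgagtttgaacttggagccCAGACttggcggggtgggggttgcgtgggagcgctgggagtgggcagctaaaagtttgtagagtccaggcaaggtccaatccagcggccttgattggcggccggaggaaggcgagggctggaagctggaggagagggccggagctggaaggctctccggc

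RefSeq promoter entries were at hand for 7 of the 9 genes. The Tgfb1 stretch was 75.2% G and C and held 5 GC boxes, and none of the other 3 motifs. The Tgfb2 stretch held a TATA box whose first base lay 31 bases before the start, CACGTG at 51 bases, and CAGAC at 204 and 221 bases. The Ltbp1 and Tgfbr2 stretches each held a single CAGAC, at 64 and 160 bases. Among the others, Tgfbi held CAGAC at 85 and 239 bases and a GC box at 124, and Tgfbr1 and Smad3 held 2 GC boxes each. These letters are common: of 32851 promoters of the same length, 42.2% held CAGAC, 32.7% GGGCGG, 12.4% TATAAA and 6.02% CACGTG. A match is a description of the sequence only.

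Per length of exon, Tgfbi was the most abundant of the 9 transcripts and Tgfb2 the least. The level of Tgfbi was 17.2 ± 6.66 CPM per kb (SD, n = 22 livers). Smad7 followed at 4.31 ± 1.23, Tgfbr1 at 3.6 ± 0.821 and Tgfbr2 at 3.36 ± 1.17 CPM per kb, levels that lay within their spread of each other. Tgfb1 at 2.32 ± 0.669 and Smad3 at 2.01 ± 0.371 CPM per kb formed the next pair, also within their spread. Tgfb3 at 0.452 ± 0.341, Ltbp1 at 0.326 ± 0.156 and Tgfb2 at 0.195 ± 0.106 CPM per kb were the lowest, and neighbours among these again overlapped. The order depends in part on the length used: with the longest transcript in place of all exons, Tgfb1 was at 4.55 ± 1.31 CPM per kb, level with Smad7 at 4.55 ± 1.3. Of the reads per length on the 3 ligands, Tgfb1 took 85% ± 1.06 (SD, n = 6) in Cre mice on chow, Tgfb3 9.87% ± 1.74 and Tgfb2 5.17% ± 1.11. In Cre mice on MCD the share of Tgfb1 was 71.6% ± 10.3 (SD, n = 5) and that of Tgfb3 20.9% ± 8.41, with a range of 12.0 to 33.4% between livers. These shares use all exons and depend on that choice. With the longest transcript, Tgfb1 in Cre mice was at 3.76 CPM per kb on chow and 6.17 on MCD, against 1.92 and 3.15 with all exons. Tgfb3 was at 0.225 and 0.916 CPM per kb by either length, so its share is smaller by the longest transcript.

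**Figure D1:**
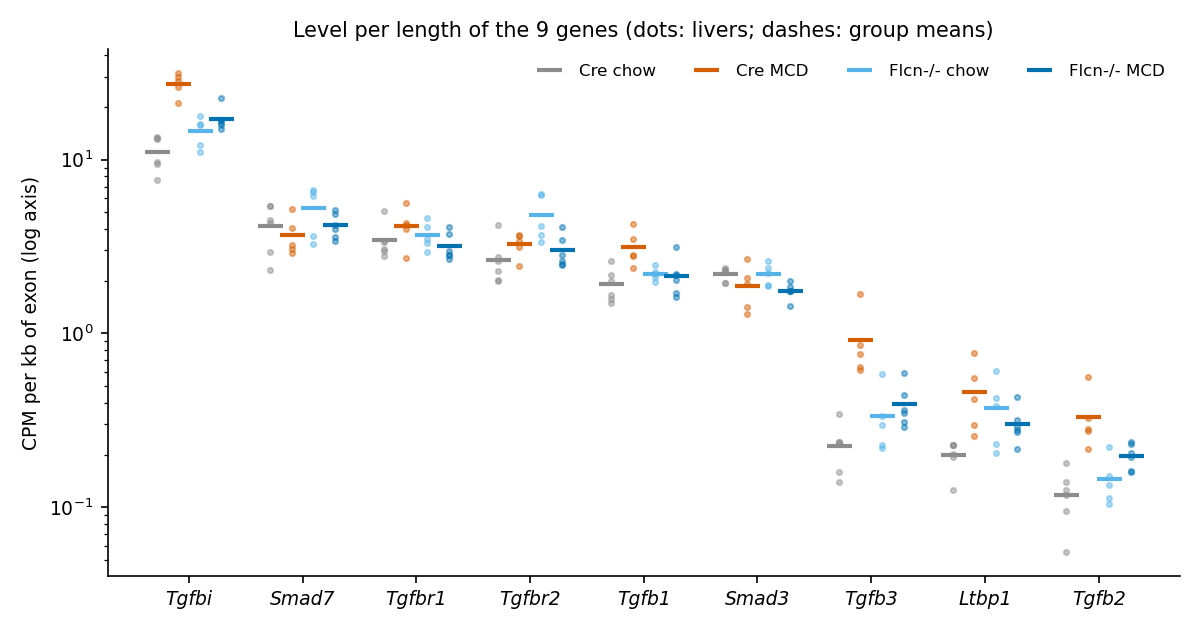
Level of each gene per kb of exon (CPM per kb, log axis), genes ordered by their mean over 22 livers, with 1 dot per liver and a dash for each group mean. Tgfbi lies above the other 8 genes in every group, and Tgfb3, Ltbp1 and Tgfb2 lie lowest.

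Some livers stood apart in ways that the groups do not explain. The liver of Cre mouse 3 on MCD held RNA of skeletal muscle, with a summed level of 15 muscle markers of 3530 CPM. The next highest were Cre mouse 4 on MCD at 169 CPM, liver-Flcn-/- mouse 3 on MCD at 79.4 CPM and Cre mouse 1 on MCD at 22.6 CPM, and in Cre mice on chow the sum was 1.42 to 6.77 CPM. The same liver, Cre mouse 3, had the highest summed mesothelial markers at 31.5 CPM, against a median of 11.8 CPM in its group. The 5 chow libraries of Cre mice 1, 5 and 6 and liver-Flcn-/- mice 1 and 3 had a low share of uniquely mapped reads. Hepatocyte markers were abundant throughout, with Alb at 56800 ± 7060 CPM or more as a group mean. With MCD 6 of 7 fell in both genotypes, where 28.2% of all tested genes fell in Cre and 22.5% in liver-Flcn-/- mice. The sum of the hepatocyte markers went from 150000 ± 16300 to 96600 ± 15000 CPM in Cre and from 123000 ± 17200 to 76000 ± 8810 CPM in liver-Flcn-/- mice, and its part in the results for other genes was not tested. Flcn itself was counted over the whole gene in whole liver, and on chow was at 31.7 ± 4.91 CPM (SD, n = 6) in Cre against 20.4 ± 2.78 CPM (n = 5) in liver-Flcn-/- mice (1.55-fold lower, log2 −0.63, SE 0.173, adjusted p = 0.025), without overlap. The call was lost without Cre mouse 6 (log2 −0.56, adjusted p = 0.056), without liver-Flcn-/- mouse 3 or 4 (log2 −0.57 and −0.62, adjusted p = 0.066 and 0.069), without all 5 libraries of low uniquely mapped share (log2 −0.55, adjusted p = 0.24), when the replicate number was added as a block (log2 −0.57, adjusted p = 0.053) and with library totals alone (log2 −0.48, adjusted p = 0.067). On MCD the levels were 29.2 ± 8.42 and 26 ± 5.13 CPM and the difference did not pass the test (log2 −0.16, SE 0.17, adjusted p = 0.57), so on MCD the count of Flcn did not separate the genotypes. In the study the recombinase removes an exon of Flcn, and liver FLCN protein was examined by western blot in mice on chow. A count over the whole gene measures neither. The female transcript Xist exceeded 10 CPM in 3 livers of each group, so the groups were mixed in sex. On chow the 5 libraries of low uniquely mapped share were all of the livers in which Xist was under 10 CPM, so on that diet the mapped share and sex cannot be told apart, and leaving these libraries out sets female chow livers against MCD livers of both sexes. Cre mice 3 and 4 were likewise the only Cre livers on MCD with Xist under 10 CPM. Results within the 12 livers of high Xist (3 in each group) and the 10 of low Xist (2 or 3 in each group) are therefore given after the comparisons. The Flcn call on chow was lost within both sets (log2 −0.55, adjusted p = 0.098 with high Xist, and log2 −0.69, adjusted p = 0.24 with low Xist).

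The first comparison asked what the MCD diet did in Cre mice. All 3 ligands, Ltbp1 and Tgfbi rose, and the receptors and Smads did not pass the test. In the comparison as a whole 29.3% of the tested genes were called higher and 28.2% lower at an adjusted p under 0.05 by edgeR's quasi-likelihood test with Benjamini-Hochberg adjustment, and of the 9 pathway genes 5 were higher and 0 lower. Their median log2 fold change was 0.71, against 0.0122 over all genes tested. DESeq2 and limma-voom also called 5 higher and 0 lower, and so did an unadjusted p under 0.05. Scaling by library totals alone, without TMM, moved the median of all genes by 0.42 and gave 7900 higher and 1748 lower calls in place of 4121 and 3968, and called Tgfbr1 and Tgfbr2 higher beside the 5, 7 in all.

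**Figure D2:**
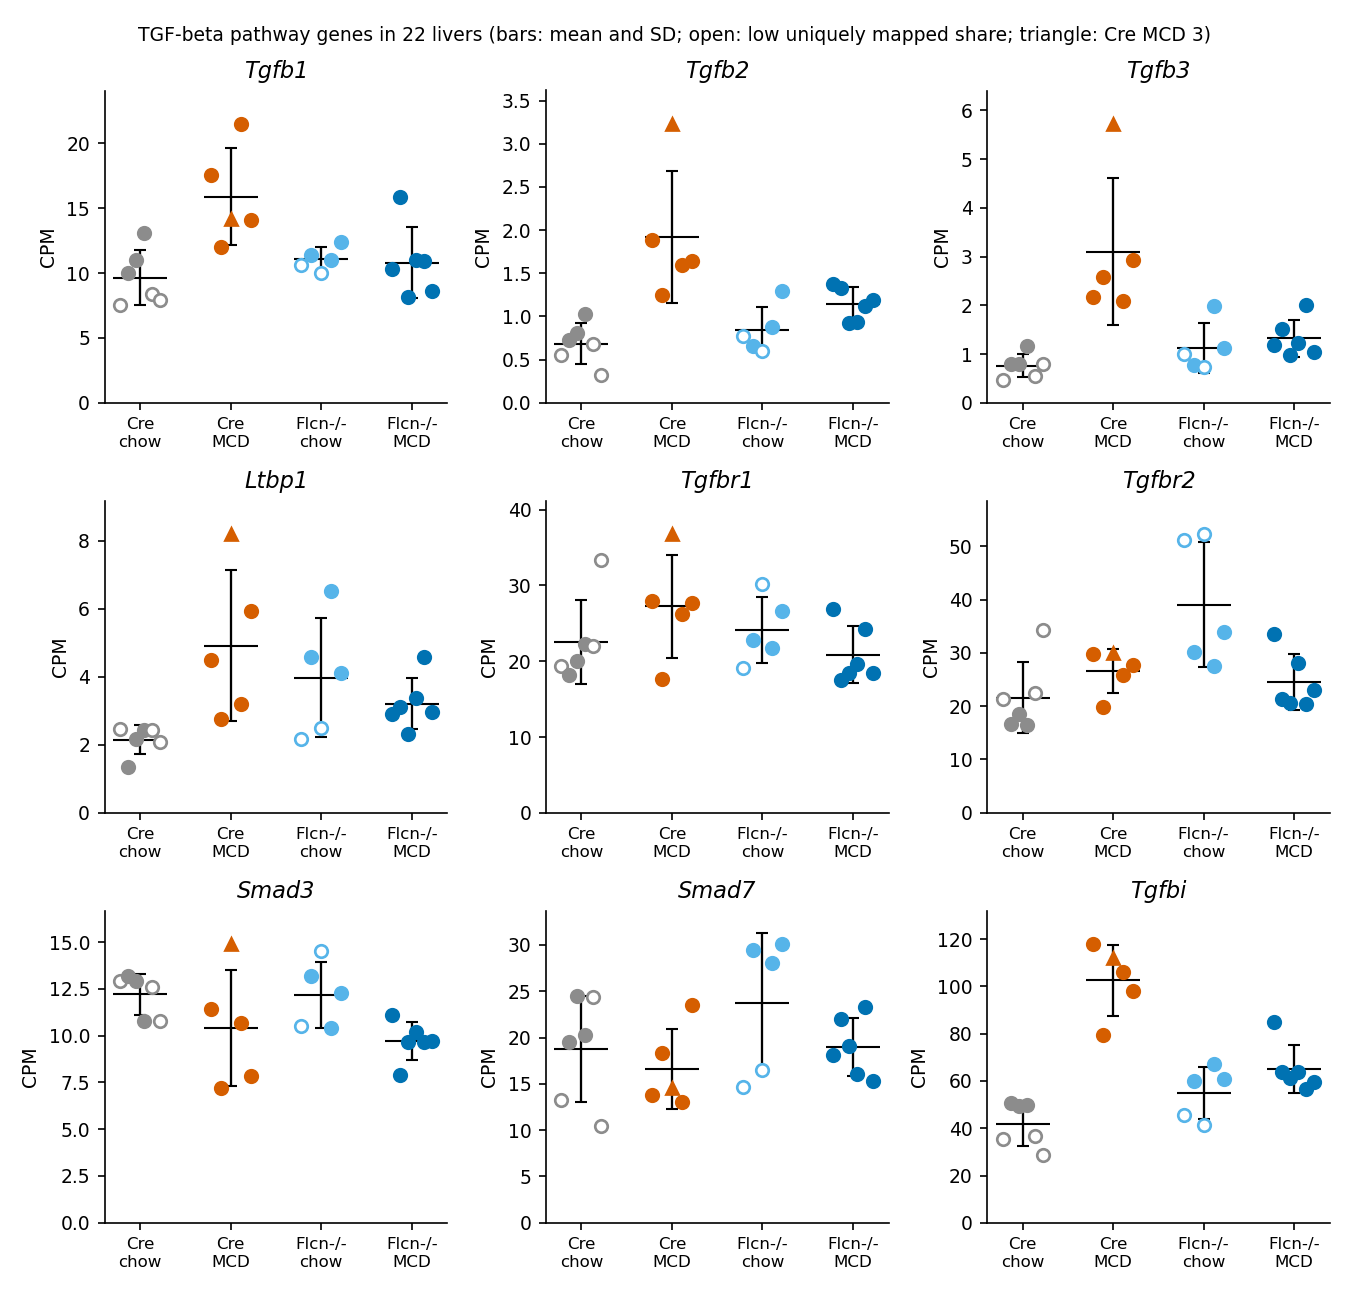
Level of the 9 genes in each liver (CPM, linear axes from 0) by genotype and diet, with the group mean and SD as bars, open symbols for the 5 chow livers of low unique mapping and a triangle for the liver with the most skeletal muscle RNA. The 5 Cre livers on MCD lie above all Cre livers on chow for Tgfb2, Tgfb3, Ltbp1 and Tgfbi.

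Tgfb1 (ENSMUSG00000002603, chr7:25687002-25705077, plus strand, GRCm38) encodes the ligand that hepatic macrophages, platelets and stellate cells are known to supply in injured liver. In Cre mice on chow it ranged from 7.51 to 13.1 CPM with a median of 9.2, and on MCD the 5 Cre livers were at 17.6, 12.0, 14.2, 21.5 and 14.1 CPM. Only the lowest of the MCD livers fell within the chow range. Tgfb1 was 1.64-fold higher on MCD (log2 0.71, SE 0.172, adjusted p = 0.0014). Without the 5 chow libraries of low uniquely mapped share, the fold change was 0.47 on the log2 scale and no longer passed the test (adjusted p = 0.064). With Flcn deleted, the 5 chow livers had 10.6, 11.4, 10.0, 11.0 and 12.4 CPM, and the 6 MCD livers ranged from 8.16 to 15.9 CPM with a median of 10.6. The chow livers lay inside the MCD range, and the difference was small against its error (log2 −0.04, SE 0.173, 95% interval −0.38 to 0.3, adjusted p = 0.88).

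Tgfb3 (ENSMUSG00000021253, chr12:86056745-86079041, minus strand) had the largest fold change of the 9 genes. It is the ligand isoform best known from palate development and scarless wound repair. In Cre mice on chow Tgfb3 ranged from 0.474 to 1.16 CPM, median 0.796, and in Cre mice on MCD it was 2.18, 2.59, 5.72, 2.09 and 2.92 CPM. The groups did not overlap, and the highest value belonged to Cre mouse 3, the liver with muscle RNA. The increase was 4.01-fold (log2 2.0, SE 0.309, adjusted p = 1.3e-05) and 1.66 on the log2 scale without that mouse (adjusted p = 3.1e-05). The liver-Flcn-/- values of Tgfb3 were 1.01, 0.772, 0.739, 1.99 and 1.13 CPM on chow and ranged from 0.973 to 2.0 CPM on MCD, median 1.2. The 2 diets overlapped almost fully in that genotype, with a log2 fold change of 0.22 (SE 0.309, 95% interval −0.39 to 0.83, adjusted p = 0.59). Between 6 and 122 reads per library stood behind these values, so the precision of each liver is limited by counting.

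Tgfb2 (ENSMUSG00000039239, chr1:186622792-186705989, minus strand) is the third ligand, the one that needs a co-receptor to bind Tgfbr2 well. It ranged from 0.321 to 1.03 CPM in Cre mice on chow, median 0.703, and was 1.89, 1.25, 3.23, 1.6 and 1.64 CPM on MCD. Again the groups did not overlap and Cre mouse 3 was highest. Tgfb2 was 2.75-fold higher on MCD (log2 1.46, SE 0.272, adjusted p = 1.1e-04), and 1.19 on the log2 scale without Cre mouse 3 (adjusted p = 0.00038). Its liver-Flcn-/- values were 0.778, 0.654, 0.604, 0.882 and 1.29 CPM on chow and 0.919 to 1.38 CPM on MCD, median 1.16. Most MCD livers of that genotype lay above most of its chow livers, but the difference did not pass the test (log2 0.43, SE 0.275, 95% interval −0.11 to 0.97, adjusted p = 0.21). Here 4 to 69 reads per library were counted. The annotated antisense transcript Gm29491 overlaps Tgfb2, and Gm37804 and Gm48008 overlap Tgfb3; none of these had more than 1 read in any library.

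Ltbp1 (ENSMUSG00000001870, chr17:75005568-75392512, plus strand) ranged from 1.34 to 2.45 CPM in Cre mice on chow, median 2.3, and was 4.49, 2.76, 8.2, 3.2 and 5.94 CPM on MCD. The lowest MCD liver was above the highest chow liver. The increase was 2.28-fold (log2 1.19, SE 0.288, adjusted p = 0.0014) and 0.93 on the log2 scale without Cre mouse 3 (adjusted p = 0.0069). The liver-Flcn-/- chow livers were at 2.18, 4.57, 2.49, 6.51 and 4.1 CPM and those on MCD ranged from 2.32 to 4.59 CPM, median 3.03. The 2 lowest chow livers of this genotype were those of low uniquely mapped share, and the diets overlapped (log2 −0.31, SE 0.283, 95% interval −0.87 to 0.24, adjusted p = 0.39).

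Tgfbi (ENSMUSG00000035493, chr13:56609523-56639562, plus strand), the matrix protein at the output end of the pathway, separated the Cre groups by the widest margin relative to its error. It ranged from 28.8 to 50.5 CPM on chow, median 43.1, and was 118, 79.4, 112, 106 and 98.0 CPM on MCD. Every Cre liver on MCD was above every Cre liver on chow, and the 3 lowest chow livers were those of low uniquely mapped share. Tgfbi rose 2.46-fold (log2 1.3, SE 0.155, adjusted p = 4.9e-07), and by 1.03 on the log2 scale without those 5 libraries (adjusted p = 9.1e-06). Among liver-Flcn-/- mice Tgfbi was 45.5, 59.9, 41.4, 67.4 and 60.7 CPM on chow and 56.6 to 85 CPM on MCD, median 62.6. The diets overlapped in that genotype (log2 0.24, SE 0.155, 95% interval −0.06 to 0.55, adjusted p = 0.22).

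Neither receptor passed the test with MCD in Cre mice in the fit of all livers. Tgfbr2 (ENSMUSG00000032440, chr9:116084293-116175360, minus strand) is the type II receptor that binds the ligand first. It ranged from 16.4 to 34.3 CPM in Cre mice on chow, median 20.0, and was 29.8, 19.9, 30.0, 25.8 and 27.7 CPM on MCD. Apart from the chow library of Cre mouse 6, which had a low uniquely mapped share and the highest value of the Cre mice, the MCD livers were mostly higher, but the difference did not pass the test (log2 0.3, SE 0.201, adjusted p = 0.21). It passed in 1 of the 22 fits that left out 1 mouse, the fit without Cre mouse 6 on chow (log2 0.48, adjusted p = 0.032). Of 13 other alternatives 4 called it. They included Xist as a term (log2 0.39, adjusted p = 0.025) and leaving out the 5 libraries of low uniquely mapped share (log2 0.62, adjusted p = 0.0056). Tgfbr2 in liver-Flcn-/- mice was at 51.1, 30.2, 52.3, 27.6 and 34.0 CPM on chow and at 20.4 to 33.6 CPM on MCD, median 22.2. The 2 chow livers above 50 CPM were those of low uniquely mapped share. Tgfbr2 was 1.59-fold lower on MCD (log2 −0.67, SE 0.199, adjusted p = 0.0092), the single call among the 9 genes in that genotype, and not without the 5 libraries (log2 −0.32, adjusted p = 0.11). Over all genes 22.5% were higher and 22.5% lower with MCD in liver-Flcn-/- mice, against 0 and 1 of the 9, and the median log2 fold change of the 9 was −0.21, against 0.00435 over all genes. At an unadjusted p under 0.05, 0 were higher and 2 lower, and DESeq2 and limma-voom gave 0 higher and 1 lower. With library totals alone, the calls over all genes were 5803 higher and 1731 lower in place of 3162 and 3166.

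Tgfbr1 (ENSMUSG00000007613, chr4:47353222-47414931, plus strand) is the type I receptor kinase that phosphorylates Smad3. It ranged from 18.2 to 33.3 CPM in Cre mice on chow, median 21, and was 28.0, 17.7, 36.8, 26.2 and 27.7 CPM on MCD. Tgfbr1 in liver-Flcn-/- mice was 19.1, 22.8, 30.2, 21.8 and 26.6 CPM on chow and 17.5 to 26.9 CPM on MCD, median 19. All 4 groups overlapped, and neither diet response passed the test (log2 0.28, SE 0.174, adjusted p = 0.18 in Cre mice; log2 −0.21, SE 0.174, adjusted p = 0.35 in liver-Flcn-/- mice). Without Cre mouse 6 on chow the response in Cre mice was called (log2 0.42, adjusted p = 0.032), as it was without Cre mouse 2 on MCD (log2 0.4, adjusted p = 0.045).

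Smad3 (ENSMUSG00000032402, chr9:63646767-63757994, minus strand), the transcription factor that the receptor activates by phosphorylation, ranged from 10.8 to 13.2 CPM in Cre mice on chow, median 12.7. On MCD it was 11.4, 7.2, 14.9, 10.7 and 7.84 CPM in Cre mice, a wider spread, with Cre mouse 3 the highest and mice 2, 4 and 5 below every chow liver, mouse 4 narrowly. In liver-Flcn-/- mice it was 10.5, 13.2, 14.5, 10.4 and 12.3 CPM on chow and 7.92 to 11.1 CPM on MCD, median 9.68. The diet responses were log2 −0.23 (SE 0.148, adjusted p = 0.19) in Cre mice and log2 −0.33 (SE 0.147, adjusted p = 0.075) in liver-Flcn-/- mice. Without Cre mouse 3, Smad3 was called lower on MCD in Cre mice (log2 −0.39, SE 0.133, adjusted p = 0.016), as it was without mice 3 and 4 (log2 −0.46, adjusted p = 0.011). The liver-Flcn-/- difference of −0.33 was called when the fit left out Cre mouse 2 or 3 on MCD (adjusted p = 0.046 and 0.035) or used only the groups compared (adjusted p = 0.028). The mRNA count does not measure phosphorylation of the protein.

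Smad7 (ENSMUSG00000025880), the inhibitory Smad, ranged from 10.5 to 24.5 CPM in Cre mice on chow, median 19.9, and was 13.8, 18.3, 14.5, 13.0 and 23.5 CPM on MCD. In liver-Flcn-/- mice it was 14.7, 29.5, 16.5, 28.0 and 30.1 CPM on chow and 15.3 to 23.3 CPM on MCD, median 18.6. The lowest 2 chow livers of each genotype were among those of low uniquely mapped share. All 4 groups overlapped, and the diet responses were log2 −0.18 (SE 0.225, adjusted p = 0.52) and log2 −0.32 (SE 0.223, adjusted p = 0.25). Without the 5 libraries of low uniquely mapped share, Smad7 was called lower on MCD in liver-Flcn-/- mice (log2 −0.62, SE 0.167, adjusted p = 0.0064) and not in Cre mice (log2 −0.37, adjusted p = 0.087).

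The second comparison asked how the genotypes differed on each diet. On chow, Tgfbr2 was 1.81-fold higher in liver-Flcn-/- than in Cre mice (log2 0.85, SE 0.201, adjusted p = 0.0093), and the other 8 genes were not called, where 5.52% of all tested genes were higher and 3.1% lower. The Tgfbr2 groups overlapped through Cre mouse 6. Without the 5 libraries of low uniquely mapped share the difference was as large (log2 0.83, adjusted p = 0.018). Ltbp1 stood close to the threshold (log2 0.89, SE 0.292, 95% interval 0.32 to 1.47, adjusted p = 0.06). It passed in 4 of the 22 fits that left out 1 mouse and in 4 of 13 other alternatives, DESeq2 among them (log2 0.9, adjusted p = 0.033). The 4 fits left out liver-Flcn-/- mouse 1 or 3 on chow (log2 1.04 and 1.02, adjusted p = 0.03 and 0.041) or Cre mouse 2 or 3 on MCD. Leaving out a mouse on MCD changes the shared estimate of spread (log2 0.89 and 0.9, adjusted p = 0.044 and 0.036). The Ltbp1 difference was 1.35 without the 5 libraries of low uniquely mapped share (adjusted p = 0.054) and 0.64 without liver-Flcn-/- mouse 4 (adjusted p = 0.24). Of the 5 liver-Flcn-/- livers 4 lay above all Cre livers, 1 of them by a narrow margin (2.49 against 2.45 CPM). The median log2 fold change of the 9 genes on chow was 0.34, against −0.0271 over all genes. At an unadjusted p under 0.05, 3 were higher and 0 lower, DESeq2 gave 2 and 0, and limma-voom 1 and 0. With library totals alone, 1452 of all genes were higher and 125 lower in place of 776 and 436.

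**Figure D3:**
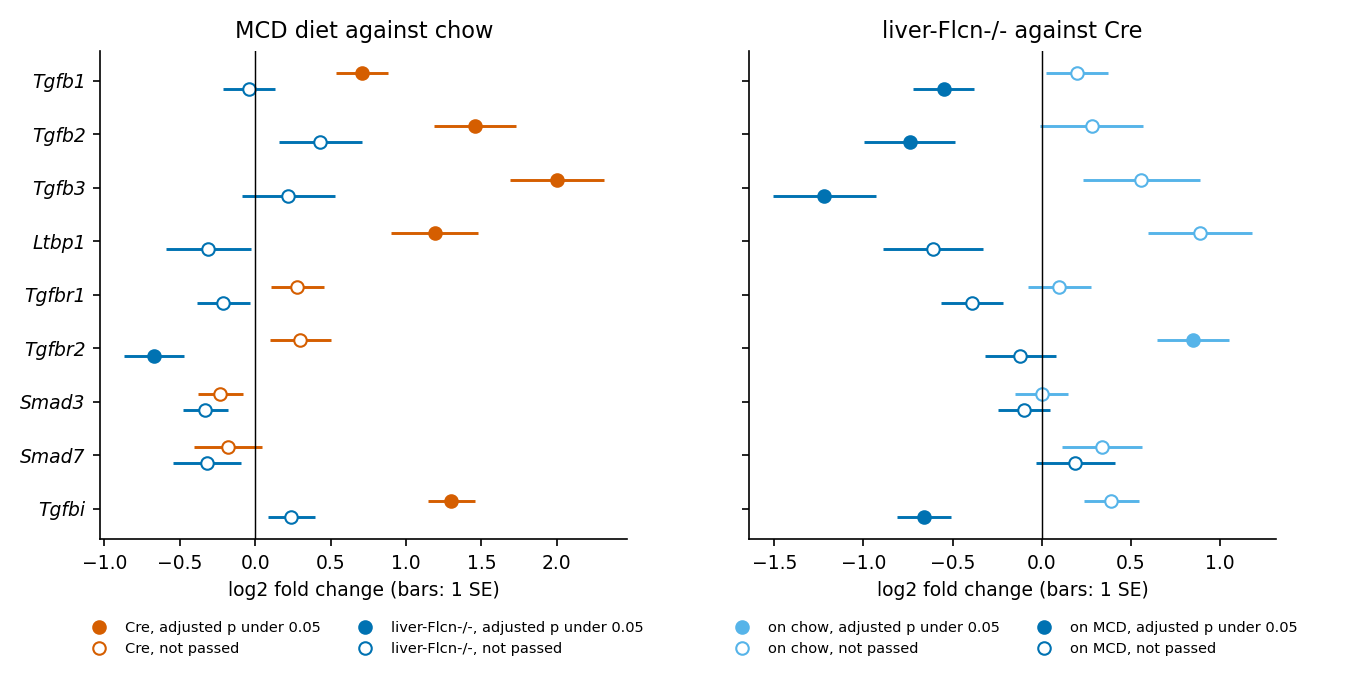
Log2 fold change with 1 SE for the 9 genes, left MCD against chow in each genotype, right the genotypes compared within each diet, filled where the adjusted p is under 0.05. The ligands, Ltbp1 and Tgfbi lie between 0.71 and 2.0 for MCD in Cre mice and between −0.31 and 0.43 in liver-Flcn-/- mice.

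On MCD the 3 ligands and Tgfbi were lower in liver-Flcn-/- than in Cre mice. Of the 9 genes 0 were higher and 4 lower, where 8.06% of all tested genes were higher and 8.53% lower. DESeq2 and limma-voom also gave 0 and 4, and an unadjusted p under 0.05 gave 0 and 6. This comparison uses the same 5 Cre livers on MCD as the first, so the values are not independent of it. Tgfb3 was 2.33-fold lower (log2 −1.22, SE 0.289, adjusted p = 0.0057), and the lowest Cre liver at 2.09 CPM was above the highest liver-Flcn-/- liver at 2.0 CPM. Without Cre mouse 3 the difference in Tgfb3 was −0.88 on the log2 scale (adjusted p = 0.023). Tgfbi was 1.58-fold lower (log2 −0.66, SE 0.154, adjusted p = 0.0051), with 1 liver-Flcn-/- liver, mouse 1 at 85 CPM, above the lowest Cre liver. Tgfb1 was 1.46-fold lower (log2 −0.55, SE 0.17, adjusted p = 0.03), with overlap through liver-Flcn-/- mouse 2 at 15.9 CPM. Without Cre mouse 3 the difference in Tgfb1 was −0.59 (adjusted p = 0.029), and without Cre mice 3 and 4 it was −0.43 (adjusted p = 0.15). Leaving out Cre mouse 4, the highest, gave −0.42 (adjusted p = 0.12), and the call was also lost without Cre mouse 1 or without liver-Flcn-/- mouse 1, 3 or 6. Tgfb2 was 1.67-fold lower (log2 −0.74, SE 0.255, adjusted p = 0.05, just under the threshold), and the call was lost in 18 of the 22 fits that left out 1 mouse. Without Cre mouse 3 the difference in Tgfb2 was −0.47 (adjusted p = 0.17). With the block it was −0.64 (adjusted p = 0.16), and with only the groups compared −0.75 (adjusted p = 0.064). Ltbp1 (log2 −0.61, SE 0.279, adjusted p = 0.14, and −0.35 without Cre mouse 3), Tgfbr1 (log2 −0.39, adjusted p = 0.14), Tgfbr2 (log2 −0.12, adjusted p = 0.75), Smad3 (log2 −0.1, adjusted p = 0.71) and Smad7 (log2 0.19, adjusted p = 0.62) did not pass the test. Tgfbr1 was called in 1 of the 22 fits that left out 1 mouse, the fit without Cre mouse 2 (log2 −0.51, adjusted p = 0.037). Without Cre mouse 3 the difference in Tgfbr1 was −0.25 (adjusted p = 0.34).

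The third comparison tested directly whether the diet response differed between the genotypes. The estimated response was smaller, or more negative, in liver-Flcn-/- mice for all 9 genes, with a median difference of −0.97 on the log2 scale against 0.0297 over all genes. The sign turned for Smad3 without Cre mice 3 and 4 on MCD (0.14) and for Smad7 when the replicate number was added as a block (0.07), and within the livers of high Xist (Smad3, 0.17) or of low Xist (Smad7, 0.45). The test was passed by 4 of them, all lower, where 3.29% of all tested genes had a larger and 5.54% a smaller response. At an unadjusted p under 0.05 it was 0 and 6, by DESeq2 0 and 5 and by limma-voom 0 and 3. With library totals alone, 177 of all genes had a larger and 1236 a smaller response in place of 463 and 779. The 4 were Tgfb3 (log2 −1.78, SE 0.437, adjusted p = 0.015), Ltbp1 (log2 −1.51, SE 0.403, adjusted p = 0.024), Tgfbi (log2 −1.06, SE 0.218, adjusted p = 0.0054) and Tgfbr2 (log2 −0.97, SE 0.283, adjusted p = 0.036). Tgfb2 (log2 −1.03, SE 0.387, adjusted p = 0.099) and Tgfb1 (log2 −0.75, SE 0.244, adjusted p = 0.059) were of similar size but missed the threshold. The 95% intervals of Smad3 (−0.51 to 0.31) and Smad7 (−0.77 to 0.47) included 0. That of Tgfbr1 ended at 0 after rounding (−0.97 to −0.0), and the edgeR test was not passed (adjusted p = 0.23). For Tgfbr2 the genotypes differed on chow and not on MCD, and for Tgfb3 and Tgfbi on MCD and not on chow. The call for Tgfbr2 was lost in 10 of the 22 fits that left out 1 mouse and without Cre mice 3 and 4 on MCD (log2 −0.93, adjusted p = 0.081), that for Ltbp1 without liver-Flcn-/- mouse 4 on chow (log2 −1.25, adjusted p = 0.059), by limma-voom (log2 −1.36, adjusted p = 0.056) and with the replicate number as a block (log2 −1.47, adjusted p = 0.067). That for Tgfb3 was lost without the 5 chow libraries of low uniquely mapped share (log2 −1.72, adjusted p = 0.065) and with the block (log2 −1.7, adjusted p = 0.056). For Tgfbi it was lost in the 10 livers of low Xist alone (log2 −1.03, adjusted p = 0.093).

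Within the 12 livers of high Xist, none of which had a low uniquely mapped share, Tgfb3 (log2 1.47, adjusted p = 0.0045), Tgfb2 (log2 0.89, adjusted p = 0.024), Ltbp1 (log2 1.15, adjusted p = 0.013) and Tgfbi (log2 0.98, adjusted p = 3.2e-05) rose with MCD in Cre mice by edgeR's test. The same 4 rose within the 10 livers of low Xist (log2 2.7, 2.22, 1.32 and 1.72). Tgfb1 was called in Cre livers of low Xist (log2 1.18, adjusted p = 0.003) and not in those of high Xist (log2 0.36, adjusted p = 0.083), and for none of these genes was a difference between the sexes tested. Livers of low Xist carried the low mapped share on chow and, in Cre mice on MCD, the muscle RNA. Tgfbr2 fell with MCD in liver-Flcn-/- mice within both (log2 −0.52, adjusted p = 0.012 with high Xist, and log2 −0.92, adjusted p = 0.019 with low Xist). With MCD in Cre mice, Tgfbr2 was called higher and Smad3 lower with high Xist (log2 0.58 and −0.48, adjusted p = 0.0046 and 0.031), against 0.12 and 0.1 with low Xist. In the other genotype Smad7 was called lower with high Xist (log2 −0.6, adjusted p = 0.02, against 0.25) and Tgfbi higher with low Xist (log2 0.69, adjusted p = 0.015, against −0.08). On chow Tgfbr2 was higher in liver-Flcn-/- mice with high Xist (log2 0.83, adjusted p = 0.0068), and the value with low Xist was 1.02 (adjusted p = 0.052). Ltbp1 on chow was also called with high Xist (log2 1.35, adjusted p = 0.042) and was 0.03 with low Xist (adjusted p = 0.99). Between genotypes on MCD, Tgfb1 and Tgfbi were called lower with high Xist (log2 −0.66 and −0.74, adjusted p = 0.017 and 0.0021), and Tgfb3 was not (log2 −0.92, adjusted p = 0.093, and −1.59, adjusted p = 0.054 with low Xist). The smaller diet response was called with high Xist for Ltbp1 (log2 −1.76, adjusted p = 0.036), Tgfbr2 (log2 −1.1, adjusted p = 0.0079) and Tgfbi (log2 −1.07, adjusted p = 0.0052), and for none of the 9 with low Xist, where 63 genes in all were called.

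Other genes of the pathway were read from 5 lists, none of which holds the 9 genes. In latency and activation, 16 of 18 genes could be tested. In Cre mice 8 of the 16 rose with MCD and 0 fell, with a median log2 fold change of 0.65, where 29.3% of all genes rose and 28.2% fell. By DESeq2 it was 10 and 0, by limma-voom 7 and 0, and at an unadjusted p under 0.05 it was 10 and 0. Ltbp2, a microfibril protein related to Ltbp1 that does not bind latent TGF-beta, rose from 0.579 ± 0.303 to 3.23 ± 1.01 CPM (log2 2.44, SE 0.325, adjusted p = 2e-06). Lrrc32, which anchors latent TGF-beta on cell surfaces, rose by 0.82 and Dcn, a proteoglycan that binds the ligand, by 0.77 on the log2 scale (adjusted p = 2.8e-05 and 5.8e-05). With Flcn deleted, 4 genes of the list rose and 4 fell, close to the 22.5% each way over all genes. Furin, a convertase that cleaves the TGF-beta precursor, rose by 0.3, while Bgn, a proteoglycan, fell by 0.59 and Ltbp4, another latent TGF-beta binding protein, fell by 0.78 (adjusted p = 0.0088, 0.0024 and 0.011). Between genotypes on MCD, 5 genes were lower and 0 higher in liver-Flcn-/- mice (6 and 0 by DESeq2 and by limma-voom, 7 and 0 at an unadjusted p under 0.05), where 8.53% of all genes were lower and 8.06% higher. They included Ltbp2 (log2 −1.67, adjusted p = 7e-04), Thbs1, a known activator of latent TGF-beta (log2 −1.37, adjusted p = 0.0098), and Nrros, the anchor of latent TGF-beta on myeloid cells (log2 −0.66, adjusted p = 0.029). The Nrros call was lost in 5 of the 22 fits that left out 1 mouse. The diet response was smaller in liver-Flcn-/- mice for 4 of the 16 (5.54% of all genes), among them Ltbp2 (log2 −2.52, adjusted p = 0.0024), Bgn (log2 −0.91, adjusted p = 0.01) and Ltbp3 (log2 −1.69, adjusted p = 0.012). By DESeq2 the diet response was smaller for 7, by limma-voom for 3 and at an unadjusted p under 0.05 for 11. On chow DESeq2 called 3 higher and 0 lower, limma-voom 1 and 0, and an unadjusted p under 0.05 gave 5 and 0. By edgeR 1 of the 16 was higher and 0 lower in liver-Flcn-/- mice on chow, close to the 5.52% and 3.1% of all genes. This was Itgb8, a subunit of an integrin that activates latent TGF-beta, which was at 0.285 ± 0.198 CPM in Cre and 1.3 ± 0.773 CPM in liver-Flcn-/- mice (log2 2.2, adjusted p = 0.0048) and is named after its values were seen. The Cre level is near the floor of 3 counts, 0.182 to 0.241 CPM in those libraries, so the size of this fold change is uncertain.

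The 6 receptor partners had median log2 fold changes of 0.21 and 0.02 for MCD in Cre and liver-Flcn-/- mice. Of the 6, 2 rose and 0 fell in Cre mice, where 29.3% of all genes rose and 28.2% fell. In liver-Flcn-/- mice 2 rose and 1 fell, where 22.5% of all genes went each way. Fkbp1a, which encodes a protein that binds the type I receptor, rose in both genotypes, from 51.6 ± 3.89 to 89.7 ± 15.8 CPM in Cre mice (log2 0.8, adjusted p = 1.7e-06) and from 63.5 ± 5.81 to 88.2 ± 10.0 CPM where Flcn was deleted (log2 0.47, adjusted p = 0.00095). Eng, an endothelial co-receptor, fell by 0.34 in liver-Flcn-/- mice (adjusted p = 0.037), a call lost in 6 of the 22 fits that left out 1 mouse and in 4 of 13 other alternatives. On MCD, liver-Flcn-/- mice had less Acvrl1, a type I receptor of endothelial cells (log2 −0.73, adjusted p = 0.026), and more Tgfbrap1, an adaptor of the receptors (log2 0.39, adjusted p = 0.0022). These were the only calls, 1 lower and 1 higher of 6, where 8.53% of all genes were lower and 8.06% higher. No partner was called between genotypes on chow or for a difference in diet response between genotypes, where an unadjusted p under 0.05 gave 2 higher and 3 smaller, DESeq2 0 and 1 smaller, and limma-voom 0. Over all genes 5.52% were higher and 3.1% lower on chow, and 3.29% had a larger and 5.54% a smaller response. For a list of 6, no call is close to those shares. The Acvrl1 call was lost in 6 of the 22 fits that left out 1 mouse.

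Of the Smads and their regulators 20 of 21 could be tested. With MCD the Cre livers had 3 that rose and 6 that fell, the liver-Flcn-/- livers 4 and 3, shares no higher than or close to those over all genes (29.3% and 28.2%, then 22.5% and 22.5%), and none was called between the genotypes on either diet or for a difference in diet response. Strap, which encodes a partner of Smad7 at the receptor, rose in Cre (log2 0.52, adjusted p = 8.2e-06) and in liver-Flcn-/- mice (log2 0.7, adjusted p = 4e-07). Smurf2, a ubiquitin ligase of the receptors and Smads, fell in both (log2 −0.5 and −0.38, adjusted p = 0.00062 and 0.0073), and Nedd4l, another such ligase, fell from 60.7 ± 14.3 to 37.1 ± 5.06 CPM in Cre mice (log2 −0.71, adjusted p = 0.00013). Pmepa1, a feedback inhibitor, fell in liver-Flcn-/- mice (log2 −0.9, adjusted p = 0.0075). At an unadjusted p under 0.05, edgeR gave 2 lower on chow, 1 higher on MCD, and 1 larger and 1 smaller diet response. DESeq2 called 0 on chow, 1 higher on MCD and 0 for the diet response, and limma-voom called 0 in each.

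Genes known to be induced by TGF-beta had the highest median response in Cre mice of the 5 lists. Of 28 listed, 26 could be tested. With MCD in Cre mice 15 rose and 5 fell, median log2 fold change 1.23, against 4 higher and 6 lower in liver-Flcn-/- mice, median −0.04. Over all genes 29.3% rose and 28.2% fell in Cre mice, and 22.5% each way in liver-Flcn-/- mice, so that of these counts the 15 alone exceeded the share over all genes by more than 1 gene. Pdgfb, a mitogen of stellate cells, rose by 1.94 and Ccn2, a matricellular growth factor, by 2.01 on the log2 scale (adjusted p = 2.8e-06 for each). Ccn2 rose in liver-Flcn-/- mice as well (log2 1.51, adjusted p = 0.00017). The 5 that fell in Cre mice were Fn1, which hepatocytes also secrete as plasma fibronectin (log2 −0.74), the transcription factors Tsc22d1 (log2 −1.26) and Klf10 (log2 −0.98), the growth factor Vegfa (log2 −0.88) and the oxidase Nox4 (log2 −2.12), with adjusted p-values of 0.00038, 5.6e-05, 0.017, 3e-05 and 0.012. Klf10, Vegfa and Nox4 are named after their values were seen. Fn1 and Tsc22d1 also fell in liver-Flcn-/- mice (log2 −0.84 and −1.21, adjusted p = 0.00014 and 0.00011).

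Between genotypes on MCD, 13 of the 26 were lower in liver-Flcn-/- mice and 0 higher, as by DESeq2 and limma-voom (15 and 0 at an unadjusted p under 0.05), median log2 fold change −0.69 against −0.014 over all genes, of which 8.53% were lower and 8.06% higher. Tagln, a contractile protein of myofibroblasts, was at 20.9 ± 4.56 CPM (SD, n = 5) in Cre and 6.95 ± 2.22 CPM (n = 6) in liver-Flcn-/- mice (log2 −1.59, adjusted p = 0.0017). Col1a2, a chain of type I collagen, was at 39.2 ± 14.1 and 17.0 ± 4.54 CPM (log2 −1.2, adjusted p = 0.002), and Vim, the filament protein of mesenchymal cells, at 61.8 ± 24.2 and 27.6 ± 8.23 CPM (log2 −1.16, adjusted p = 0.0028). The diet response itself was smaller in liver-Flcn-/- mice for 9 of the list and larger for 1, where it was smaller for 5.54% and larger for 3.29% of all genes. It was smaller for Col1a1 (log2 −2.99, adjusted p = 0.0027), Col1a2 (log2 −1.7, adjusted p = 0.0056) and Col3a1 (log2 −2.25, adjusted p = 0.0097), which encode the fibrillar collagens of scar tissue. On chow 1 gene was higher, Sparc, a collagen-binding matrix protein (69 ± 21.6 and 113 ± 25.6 CPM, adjusted p = 0.021), and 1 lower, Tsc22d1 (102 ± 32.7 and 59.2 ± 21.9 CPM, adjusted p = 0.027), counts close to the 5.52% and 3.1% of all genes. The Tsc22d1 call was lost in 6 and the Sparc call in 2 of the 22 fits that left out 1 mouse.

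**Figure D4:**
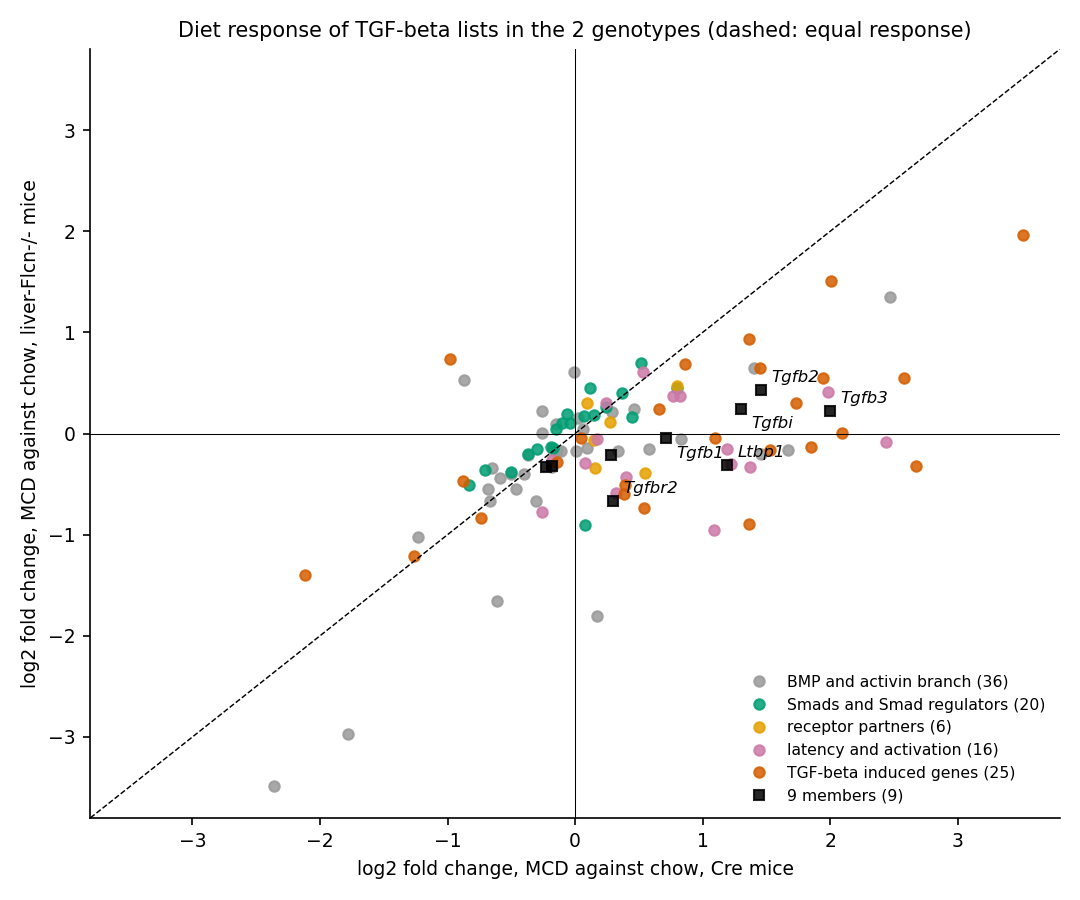
Log2 fold change with MCD in Cre mice (x axis) against liver-Flcn-/- mice (y axis), 1 point per tested gene, for the 9 members (squares) and 5 further lists of the pathway. Members that responded in Cre mice lie right of and below the dashed line of equal response. The 2 axes share no libraries. Timp1, at 3 counts or fewer in every Cre library on chow, is not drawn.

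The branch of the family that signals through bone morphogenetic proteins (BMP) and activins was read from a longer list. Of 41 genes listed 36 could be tested, and with MCD 5 rose and 10 fell in Cre mice (median log2 fold change −0.16), with 1 higher and 8 lower in liver-Flcn-/- mice (median −0.17). The shares that fell were close to those over all genes, 28.2% and 22.5%, and the shares that rose were below them, 29.3% and 22.5%. Bmp7, a BMP ligand, fell in both genotypes, to 0.331 ± 0.105 CPM in Cre and 0.289 ± 0.0601 CPM in liver-Flcn-/- mice (log2 −2.36 and −3.49, adjusted p = 4.1e-05 and 3.5e-07). Fst, the activin-binding protein follistatin, fell in liver-Flcn-/- mice from 9.75 ± 4.59 to 1.23 ± 0.506 CPM (log2 −2.97, adjusted p = 1.4e-05), and Neo1, a BMP co-receptor, fell in Cre mice (log2 −0.65, adjusted p = 0.00095). Fstl1, a secreted relative of follistatin, went the way of the ligands, with 18.2 ± 4.25 CPM in Cre and 7.6 ± 2.39 CPM in liver-Flcn-/- mice on MCD (log2 −1.25, adjusted p = 0.0032) and a smaller diet response in liver-Flcn-/- mice (log2 −1.83, adjusted p = 0.0071). On chow Gdf15, a stress-induced member of the superfamily, was higher in liver-Flcn-/- mice, at 13.6 ± 6.42 against 2.27 ± 1.19 CPM (log2 2.59, adjusted p = 0.00014), as was Id4, a BMP-responsive inhibitor of transcription factors (log2 1.94, adjusted p = 0.0032). Id4 was at 3.43 ± 1.57 CPM in Cre and 13.2 ± 12.1 CPM in liver-Flcn-/- mice, with 1 liver at 34.4 CPM, and without liver-Flcn-/- mouse 4 the difference was 1.2 (adjusted p = 0.02). Inhbc, an activin subunit made by hepatocytes, was lower on chow (log2 −0.39, adjusted p = 0.042), a call lost in 12 of the 22 fits that left out 1 mouse. On MCD Inhbe, another hepatocyte activin subunit, was lower in liver-Flcn-/- mice (33.1 ± 9.02 against 88.3 ± 24.4 CPM, log2 −1.41, adjusted p = 0.00059) and Bmp6, a BMP that regulates hepcidin, was higher (log2 0.74, adjusted p = 0.0056).

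The cell types that make and receive TGF-beta also left marks in these livers, and in whole liver fewer cells of a type and less RNA per cell cannot be told apart. The 9 monocyte and macrophage markers summed to 82.4 to 113 CPM in Cre mice on chow and to 528, 311, 746, 657 and 379 CPM on MCD, without overlap, with Lyz2 the most abundant. In liver-Flcn-/- mice the sums were 169, 141, 142, 134 and 140 CPM on chow and 171 to 500 CPM on MCD, median 318. With MCD all 9 markers rose in Cre mice, against 5 in the other genotype, where 29.3% and 22.5% of all genes rose. Between genotypes, 4 were higher in liver-Flcn-/- mice on chow (5.52% of all genes), 5 were lower in them on MCD (8.53%), and for 8 the diet response was smaller in that genotype (5.54%). In the same order limma-voom called 1, 6 and 4, and DESeq2 5, 5 and 9. All 9 macrophage markers, the ligands and Tgfbi were called higher with MCD in Cre mice. Between genotypes on MCD, 5 of the 9 markers, the ligands and Tgfbi were called lower in liver-Flcn-/- mice, and 4 markers were not called. Of the ligands, the Tgfb1 and Tgfb2 calls there were lost in 5 and 18 of the 22 fits that left out 1 mouse. With MCD in liver-Flcn-/- mice, and between genotypes on chow, 5 and 4 of the macrophage markers were called higher while no ligand was, nor Tgfbi. The part of these markers in the results for the ligands and Tgfbi was not tested. Stellate cell markers summed on average to 334 CPM in Cre mice, against 333 CPM in liver-Flcn-/- mice, with the chow diet, and to 352 and 306 CPM on MCD; 3 of 8 rose with MCD in Cre mice and 1 fell, where 29.3% of all genes rose. The highest stellate sum in Cre mice on MCD was that of mouse 3, and the list holds Des, which muscle also expresses and which reached 146 CPM in 1 Cre liver on MCD against a median of 6.96 CPM. Between genotypes on MCD, Des (log2 −2.73, adjusted p = 0.0048) and Pdgfrb (log2 −0.66, adjusted p = 0.044) were lower in liver-Flcn-/- mice and 0 of the 8 higher, and the diet response of Pdgfrb was smaller (log2 −1.01, adjusted p = 0.048). By limma-voom 1 of the 8 was lower in liver-Flcn-/- mice on MCD, and 0 had a smaller diet response. Pdgfrb, a growth factor receptor of stellate cells and pericytes, and Des are named after their values were seen. Of 7 sinusoidal endothelial markers 4 fell and 1 rose with MCD in Cre mice, and 5 fell and 0 rose in liver-Flcn-/- mice. Over all genes 28.2% fell and 29.3% rose in Cre mice, and 22.5% each way in liver-Flcn-/- mice. Of 7 Kupffer cell markers 3 fell and 1 rose in Cre mice, and 4 fell and 0 rose in liver-Flcn-/- mice. The 2 that rose in Cre mice, named after their values were seen, were Lyve1 (from 7.67 ± 2.9 to 13.0 ± 4.01 CPM) and Marco (from 10.3 ± 4.68 to 51.1 ± 36.2 CPM). The Kupffer sum ranged from 288 to 492 CPM on chow and from 172 to 510 CPM on MCD in Cre mice, with overlap. Of the 6 platelet markers 2 could be tested and 1 had no more than 3 counts in any library. Pf4, which encodes platelet factor 4 and is named after its values were seen, was at 0.589 ± 0.206 CPM on chow and 2.85 ± 0.429 CPM on MCD in Cre mice, and at 0.664 ± 0.223 and 1.21 ± 0.367 CPM in liver-Flcn-/- mice. It was called higher with MCD in both genotypes, lower in liver-Flcn-/- mice on MCD (log2 −1.22, adjusted p = 0.0012), and smaller in its diet response there (log2 −1.36, adjusted p = 0.026). Itga2b, the other tested marker and an integrin subunit of platelets, was not called in any of the 5 comparisons. It was at 2.83 ± 0.99 CPM on chow and 2.72 ± 0.69 CPM on MCD in Cre mice, and at 3.09 ± 0.448 and 2.16 ± 0.336 CPM in liver-Flcn-/- mice. The part of platelet RNA in the results for the ligands was not tested. Lymphocyte markers, of which 6 could be tested, had 1 call in Cre mice and 4 that fell in liver-Flcn-/- mice. Neutrophil markers rose with MCD in both genotypes (4 and 3 of 4), to a mean sum of 32.0 and 18 CPM. Bile duct markers rose in Cre mice (4 of 6), led by Spp1, which macrophages also make. All 14 muscle markers tested were called higher on MCD in Cre mice, a group in which the sum was 3530 CPM in mouse 3, 169 CPM in mouse 4 and no more than 22.6 CPM in the others. They were all called lower in liver-Flcn-/- mice on MCD as well, whereas limma-voom called 1 higher with MCD in Cre mice and 0 between genotypes. Beyond the values without Cre mice 3 and 4 given for single genes, their part in those results was not tested.

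**Figure D5:**
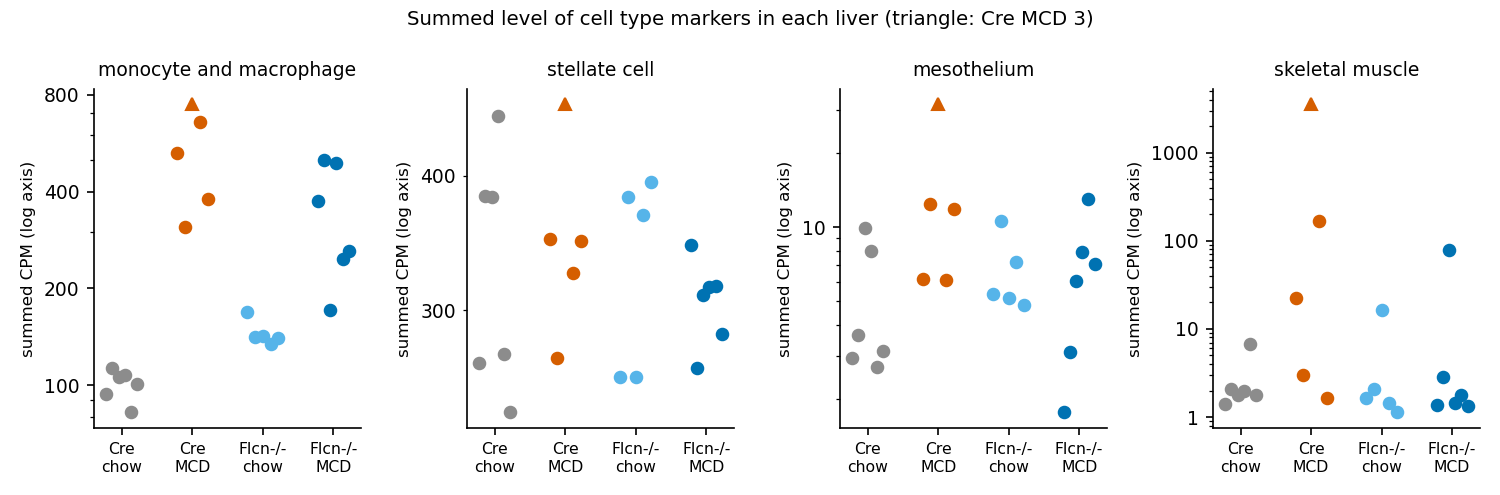
Summed level of the markers of 4 cell types in each liver (CPM, log axes), 1 point per liver by group, with a triangle for Cre mouse 3 on MCD. Macrophage markers are higher on MCD in every Cre liver than in any Cre liver on chow, and the muscle sum of 3530 CPM in Cre mouse 3 stands far above the others.

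Across the 22 livers each of the 9 genes was also compared with every other tested gene by the correlation of log2 CPM, as a description in which group differences and library properties are shared. Tgfbi was most like Flna, which encodes an actin cross-linker (r = 0.95, Spearman 0.956, and 0.807 after group means were removed), and Tgfb1 most like Tmsb4x, which encodes an actin-binding peptide abundant in blood cells (r = 0.95, Spearman 0.895, and 0.94 after group means were removed). Tgfb2 was closest to Emp1 (r = 0.922) and Myof (r = 0.919), and Myof was also second for Tgfbi (r = 0.947). Tgfb3 was closest to Ces2g (r = 0.929) and Tpm1 (r = 0.901), Ltbp1 to Parvb (r = 0.86) and Cd34 (r = 0.846), Tgfbr1 to Crim1 (r = 0.849), Tgfbr2 to Tgfa (r = 0.809) and Smad3 to Tent4a (r = 0.893). Smad7 was most like Id3, a gene of the BMP branch (r = 0.828, Spearman 0.85, and 0.83 after group means were removed). Among the 9 themselves, Tgfb2 and Tgfbi were the most alike (r = 0.902, and 0.702 after group means were removed). Tgfbr2 and Smad7 went apart within groups (−0.691 after group means were removed), and in liver-Flcn-/- mice on chow the 2 livers of low uniquely mapped share had the highest Tgfbr2 and the lowest Smad7, and were also the only ones of the group with low Xist.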

How the data were processed

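Polyadenylated RNA of whole liver was read from 1 end, 1 library for each of 22 mice, with molecular identifiers in the adapters. Per the labels and the methods of the study, the authors used Trimmomatic, STAR on GRCm38 and HTSeq, and deposited raw counts for 55573 genes. The annotation release, the strand setting and any collapsing of identifiers are not given in the sources used here.

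Genes averaging 10 counts or more (14062) were fitted in 1 quasi-likelihood model of the 4 groups with TMM factors (edgeR 4.0.16, R 4.3.3). Tests were two-sided, adjusted by Benjamini-Hochberg over all tested genes, with a threshold of 0.05. TMM factors were 0.815 to 0.889 in Cre mice on chow and 1.06 to 1.2 on MCD. The floor of 3 counts was 0.124 to 0.241 CPM. The script was tested on simulated counts. Mice are the replicates, and no 2 of the 50 pairs of libraries within groups were identical. Alternatives were DESeq2 1.42.0, limma-voom (limma 3.58.1), RLE factors, other filters, only the groups compared, Xist or the replicate number as a term, each mouse left out, and the 5 chow libraries under 75% unique mapping in the study's quality table left out. Library totals alone, and leaving out Cre mice 3 and 4 on MCD (over 100 CPM of muscle markers), and fits within the livers with Xist over or under 10 CPM were added after seeing the data.

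Named genes are the 9 members. From each other list and comparison they are at most 3 called genes of smallest adjusted p, averaging 1 CPM or more, and for likeness up to 3 genes of highest correlation. From marker lists the most abundant gene and defining markers near 0 are named, with Flcn and Xist as checks. A gene that this rule selects is not reported here by name. The members and lists were chosen with earlier results of these data known. Positions are from GENCODE M21 and promoters from RefSeq, both GRCm38.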

Additional observations from a re-analysis of the deposited data

Results flagged for a closer look

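Some livers stood far from the others of their group, by the gap to the nearest liver as a share of the group's range. Chance alone marks about 1 in 20 groups in this way, and 36 combinations of member and group and 44 of marker list and group were examined. Among the members these were Tgfb1 in liver-Flcn-/- mouse 2 on MCD (15.9 CPM, high), Tgfb3 in Cre mouse 3 on MCD (5.72 CPM, high), Ltbp1 in Cre mouse 2 on chow (1.34 CPM, low), Tgfbr1 and Tgfbr2 in Cre mouse 6 on chow (33.3 and 34.3 CPM, both high) and Tgfbi in liver-Flcn-/- mouse 1 on MCD (85 CPM, high). Cre mouse 6 on chow is 1 of the 5 libraries of low uniquely mapped share.

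Among marker sums, monocyte and macrophage markers were high in liver-Flcn-/- mouse 1 on chow (169 CPM), neutrophil markers in liver-Flcn-/- mouse 2 on chow (10.3 CPM) and mesothelial markers in Cre mouse 3 on MCD (31.5 CPM). Skeletal muscle markers were high in 1 liver of each group: Cre mouse 5 on chow (6.77 CPM), Cre mouse 3 on MCD (3530 CPM), liver-Flcn-/- mouse 3 on chow (16.2 CPM) and liver-Flcn-/- mouse 3 on MCD (79.4 CPM).

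The diet response differed between the genotypes by the interaction test of edgeR for Tgfb3 (log2 −1.78), Ltbp1 (log2 −1.51), Tgfbr2 (log2 −0.97) and Tgfbi (log2 −1.06), each lower in liver-Flcn-/- mice.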

How the results depend on the processing

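The rise of Tgfb2, Tgfb3, Ltbp1 and Tgfbi with MCD in Cre mice passed the threshold under each alternative that kept the gene, as did the lower Tgfbi in liver-Flcn-/- mice on MCD. The higher Tgfbr2 in liver-Flcn-/- mice on chow and the smaller diet response of Tgfbi were lost only in the livers of low Xist alone, and the lower Tgfb3 on MCD only within the livers of high or of low Xist. The lower Tgfb2 on MCD was lost in 18 of 22 fits that left out 1 mouse and in 8 of 12 other alternatives, and the lower Tgfb1 in 5 of 22 and 4 of 13. Without the 5 chow libraries of low unique mapping, the rise of Tgfb1 in Cre mice (0.47, adjusted p = 0.064 by edgeR) and the fall of Tgfbr2 in liver-Flcn-/- mice (−0.32, adjusted p = 0.11) were lost. These 5 are all the chow livers of low Xist, so that fit also changes the balance of sex. The cause of these losses was not tested, and that includes the smaller number of mice or genes that some alternatives bring. Requiring at least 10 counts in every library left Tgfb2 and Tgfb3 out, and so 3 called members for MCD in Cre mice and 2 for the genotypes on MCD. For MCD in liver-Flcn-/- mice the members called were 2 with only the groups compared, 2 with library totals alone (both higher, and not Tgfbr2) and 2 without Cre mice 3 and 4 on MCD. For the genotypes on chow they were 2 with DESeq2, 2 without Cre mice 3 and 4 on MCD and 3 with library totals alone. For the genotypes on MCD they were 2 with only the groups compared and 2 without Cre mice 3 and 4 on MCD. Without the 5 chow libraries of low uniquely mapped share, 495 genes in all were called between genotypes on chow and 783 for the diet response. Within the livers of high Xist, with 3 in each group, 2 members were called for MCD in liver-Flcn-/- mice, 2 for the genotypes on chow and 2 on MCD, with 627 genes in all on chow. Within those of low Xist, with 2 or 3 in each group, the members called were 2 for MCD in liver-Flcn-/- mice, 0 for the genotypes on chow, 1 on MCD and 0 for the difference in response, and the genes in all were 4685, 2905, 335, 720 and 63 in the order of the comparisons.

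With 1 mouse left out, members called ranged from 5 to 7 for MCD in Cre mice, 1 to 2 for MCD in liver-Flcn-/- mice, 1 to 2 for genotype on chow, 2 to 5 for genotype on MCD and 3 to 5 for the difference in response. Genes called in all ranged from 669 to 1428 on chow, lowest without liver-Flcn-/- mouse 4, and from 813 to 1422 for the difference in response, lowest without liver-Flcn-/- mouse 4 on chow.

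Replicate numbers mark different mice, and same-numbered mice did not consistently deviate together: the mean correlation of their deviations was −0.0844 and −0.0112 between diets in Cre and liver-Flcn-/- mice and 0.0614 and 0.129 between genotypes on chow and MCD. With the replicate number as a block, 2 members were called between genotypes on MCD, 2 for the difference in response, and 552 genes in all for that difference.

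Under the alternatives run, signs turned only for differences that were not called in the fit of all livers. With library totals alone the diet response was 0.19 for Smad3 and 0.23 for Smad7 in Cre mice, and 0.23 for Tgfb1 and 0.06 for Tgfbr1 in liver-Flcn-/- mice. For Tgfb1 in liver-Flcn-/- mice it was 0.01 with the replicate block, and −0.18 to 0.03 with 1 mouse left out. For Smad3 the genotype difference on chow was 0 with RLE factors and with DESeq2, 0.03 without a filter, 0.02 with at least 10 counts, with only the groups compared and with Xist, 0.14 with library totals alone, and −0.07 to 0.05 with 1 mouse left out. Without Cre mice 3 and 4 on MCD it was 0.14 for Smad3 and 0.08 for Flcn on MCD, and the difference in response 0.14 for Smad3. With 1 mouse left out, Smad3 ranged from −0.21 to 0.06 on MCD and in the difference in response. For Smad7 the difference in response was 0 with Xist and 0.07 with the replicate block. Within the livers of high Xist the value was −0.08 for Tgfbi with MCD in liver-Flcn-/- mice, 0.13 for Smad3 and 0.24 for Flcn between genotypes on MCD, and 0.17 for Smad3 in the difference in response. Within those of low Xist the diet response was 0.1 for Smad3 in Cre mice, and 0.25 for Tgfb1, 0.4 for Ltbp1 and 0.25 for Smad7 in liver-Flcn-/- mice. There the genotype difference on chow was 0.08 for Smad3 and −0.02 for Smad7, and the difference in response 0.45 for Smad7. Library totals alone moved the median of all genes by 0.42, 0.26, 0.15, −0.011 and −0.16 on the log2 scale in the order of the comparisons above, so the fold changes under it are to be read against those shifts. The depth of Tgfb2 and Tgfb3, a few reads to 122 per library, limits what could be detected for them.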
